A study of Homo sapiens with 36 samples.

Results

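The HOX genes were examined in RNA-seq of HepG2-IGF1R-KO cells. HepG2 is a line from a human liver tumour, here with the IGF-1 receptor gene knocked out. Members were the table rows whose symbol is HOXA, HOXB, HOXC or HOXD followed by a number, which gave 39 of 57771 genes, 11 in the HOXA cluster, 10 in HOXB, 9 in HOXC and 9 in HOXD. Of these, 36 had a count in at least 1 library, and HOXB1, HOXB5 and HOXB8 had none. There were 4 groups of 9 libraries, all of cells with the same receptor knockout, grown in DMEM with 10% serum. Cells in insulin-resistant medium were kept for 72 h with 20 mM glucose, insulin at 1 nM and palmitic, linoleic and oleic acid at 0.5 mM. They were then either stimulated for 18 h with human insulin at 3 nM or left untreated. Cells in normal medium were likewise stimulated or left untreated. Every library carried IGF1R transcripts (77.8 to 134 CPM, read counts scaled to the library total), and no library with an intact receptor gene was available to set them against.

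HOX proteins are homeodomain transcription factors whose genes lie in clusters. Along each cluster the genes are used in order from head to tail in the embryo, and low-numbered (anterior) and high-numbered (posterior) paralog groups mark successive levels of the trunk and limbs. Cultured fibroblasts keep much of the HOX pattern of the body site they came from, while adult liver is known for little use of the posterior groups. Here paralog groups 1 to 3 are called anterior, 4 to 8 central and 9 to 13 posterior.

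The libraries fell apart by a stromal gene that the labels do not mention. The labels name only HepG2-IGF1R-KO cells, and where the stromal transcripts came from was not tested, so HOX values of a library cannot be assigned to the hepatoma cells alone. COL1A1, a fibrillar collagen chain of fibroblasts, was at 0.784 to 1.70 CPM in 6 libraries and at 8071 to 31870 CPM in the other 30. The 6 were 2 triplets (3 replicates of consecutive number), 1 to 3 of the untreated group in insulin-resistant medium and 4 to 6 of the stimulated group in normal medium. Of 20 stromal markers, 11 were below 0.1 CPM in each of the 6, and the 20 summed to 99.5 to 118 CPM there, against 25367 to 80795 CPM in the 30. The 22 hepatocyte markers had a summed level of 39380 to 44875 CPM in the 6, against 14256 to 37298 CPM in the 30, so the labelled cell type was marked in all. Library totals were 26.6M to 66.9M counts in the 6, against 56.4M to 116.8M in the other 30 (medians 29.75M and 66.05M). All of the 6 but replicate 4 of the stimulated group in normal medium (66.9M) were below every one of the 30. In bulk RNA, fewer cells of a type and less RNA per cell cannot be told apart.

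Promoters of 4 members are shown because the results turn on them. HOXD1 and HOXA4 are an anterior and a central gene present in the 6 libraries, while HOXA11 and HOXD10 are posterior genes of the other 30. The sequences are RefSeq, build GRCh38.p14, from 250 bases before to 50 bases after the start, read on the gene's strand. They lie at chr2:176188418-176188717 (HOXD1, plus strand), chr7:27130708-27131007 (HOXA4, minus strand), chr7:27185183-27185482 (HOXA11, minus strand) and chr2:176116528-176116827 (HOXD10, plus strand). Capitals mark GGGCGG (a GC box) and CCAAT, each searched on both strands; in HOXD1 one match of each adjoins the other.
HOXD1: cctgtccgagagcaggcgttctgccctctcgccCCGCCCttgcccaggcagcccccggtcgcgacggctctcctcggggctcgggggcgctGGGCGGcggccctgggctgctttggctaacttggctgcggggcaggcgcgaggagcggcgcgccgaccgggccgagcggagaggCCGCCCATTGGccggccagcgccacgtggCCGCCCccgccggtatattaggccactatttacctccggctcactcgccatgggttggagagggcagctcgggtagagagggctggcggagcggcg
HOXA4: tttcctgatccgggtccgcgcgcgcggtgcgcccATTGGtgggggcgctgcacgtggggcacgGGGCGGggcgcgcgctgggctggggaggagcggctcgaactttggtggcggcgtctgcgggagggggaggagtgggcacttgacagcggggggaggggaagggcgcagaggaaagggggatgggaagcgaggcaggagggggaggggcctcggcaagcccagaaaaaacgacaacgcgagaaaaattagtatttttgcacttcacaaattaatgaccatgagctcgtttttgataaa
HOXA11: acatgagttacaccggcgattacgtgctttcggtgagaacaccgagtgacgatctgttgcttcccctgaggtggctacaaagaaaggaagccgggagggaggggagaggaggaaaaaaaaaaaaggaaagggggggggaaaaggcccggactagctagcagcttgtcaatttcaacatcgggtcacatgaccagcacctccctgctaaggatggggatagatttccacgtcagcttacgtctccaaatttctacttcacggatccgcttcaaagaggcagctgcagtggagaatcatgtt
HOXD10: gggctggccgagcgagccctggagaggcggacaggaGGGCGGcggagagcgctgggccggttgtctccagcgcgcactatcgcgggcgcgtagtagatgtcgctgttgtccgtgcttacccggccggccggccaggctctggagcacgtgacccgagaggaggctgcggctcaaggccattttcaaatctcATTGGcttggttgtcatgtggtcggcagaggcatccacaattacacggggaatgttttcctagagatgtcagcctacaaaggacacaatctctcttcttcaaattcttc

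The HOXD1 window was the richest of these in G and C (74.3%, with 36 CpG pairs), and that of HOXA11 the poorest (51.3%, 13 CpG pairs) and without either motif. RefSeq promoters were found for 20 of the 39 members (27 entries). CCAAT was present in 18 of the 27 entries and in 34.6% of 35116 promoters, and GGGCGG in 13 of 27 and in 45.0%. TATAAA was present in 5 of 27 and in 11.5%. The AP-1 motif TGANTCA was in none of the 27 (7.71% of all promoters). A match is a description of these letters and does not show that a factor binds.

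In the 6 libraries with COL1A1 below 10 CPM, HOX transcripts came almost wholly from anterior and central members, and in the other 30 mostly from posterior ones. Posterior members made up 2.18% to 3.68% of the summed HOX level per kb of exon in the 6 (mean 3.02 ± 0.492, SD, n = 6), against 65.0% to 86.3% in the 30 (75.8 ± 5.40, SD, n = 30). Anterior members made up 42.7% to 70.6% in the 6, against 3.64% to 18.0% in the 30, and central members 26.4% to 53.7% against 9.52% to 20.7%. These sets were defined from measured COL1A1, so the differences are described and carry no test. Of the 39 members, 19 were lower in all 6 than in every one of the 30, and 0 were higher in all 6. Of 33557 genes with a count, 7.54% were lower in this way and 3.29% higher.

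**Figure D1:**
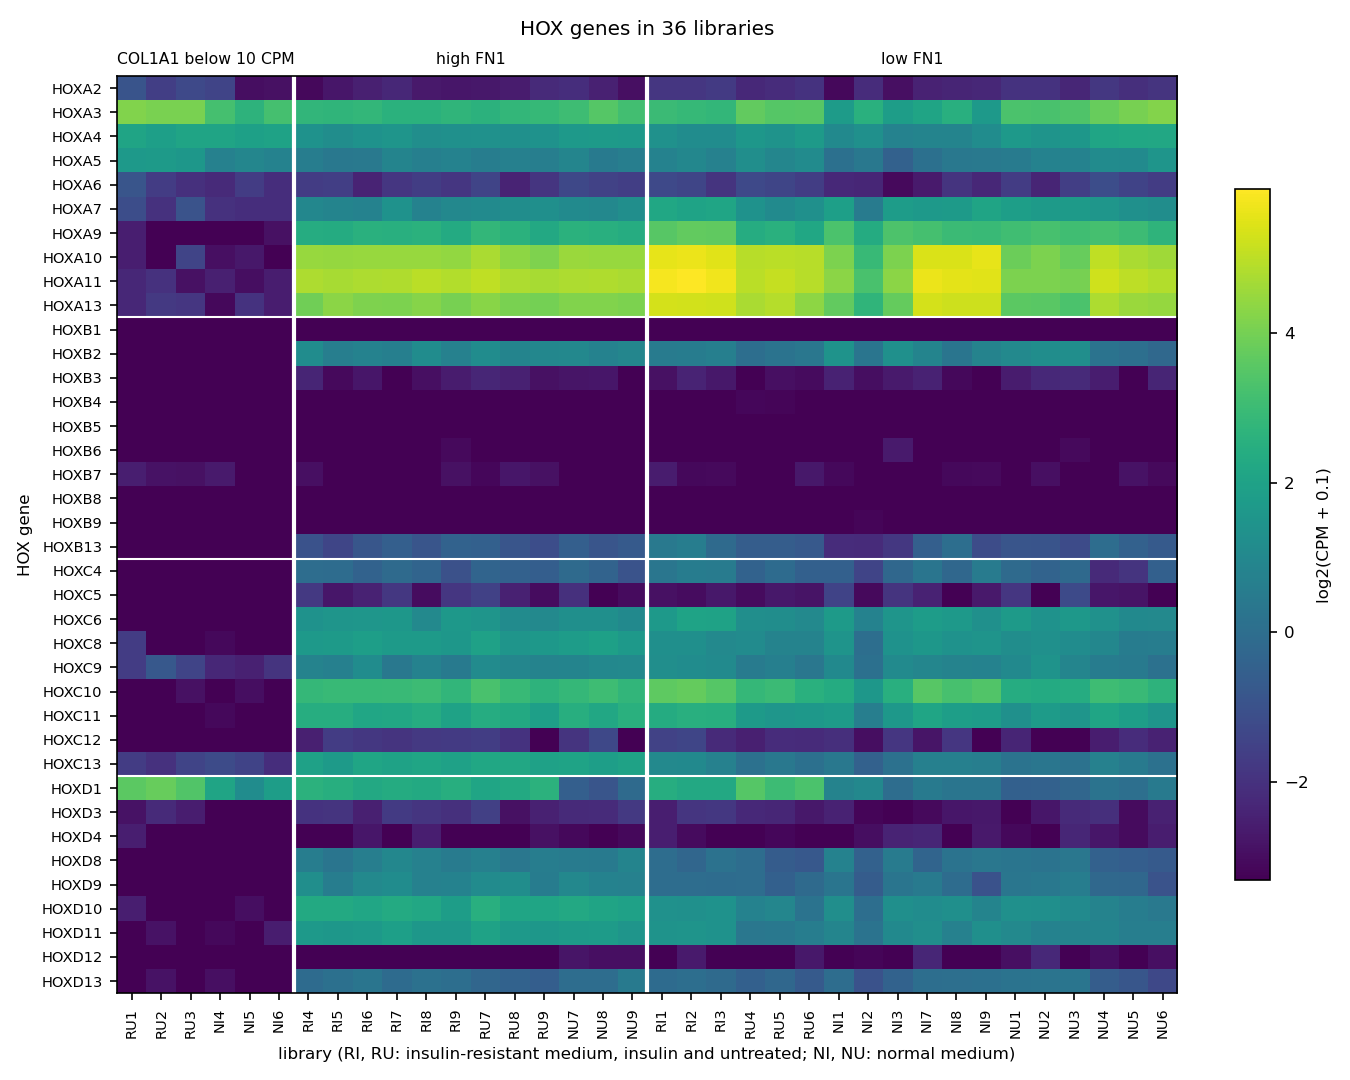
Colour gives log2(CPM + 0.1) of the HOX genes reported here (rows, by cluster) in the 36 libraries (columns, by measured COL1A1 and FN1). The 6 columns at the left are dark in nearly all rows from HOXA9 to HOXA13 and throughout HOXC10 and HOXC11, while HOXA3, HOXA4, HOXA5 and HOXD1 are seen in all columns.

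The posterior HOXA genes, which pattern the limb and the urogenital tract, included the 3 highest members per kb in the 30. HOXA11 was at 0.0263 CPM in the lowest, 0.070 in the median and 0.150 in the highest of the 6, against 9.52, 28.7 and 60.8 CPM in the 30. From the counts summed over the sets, which were 16 in the 6, its level was 428-fold lower in the 6. HOXA10, which specifies the proximal limb and the uterus, was at 0, 0.0414 and 0.277 CPM in the 6, against 7.41, 22.6 and 49.8 CPM in the 30, 416-fold lower. HOXA13, the gene of the hand and foot, was at 0.0150, 0.132 and 0.188 CPM in the 6, against 6.50, 18.5 and 40.3 CPM in the 30, 218-fold lower. All 3 were at trace levels in the 6 with no overlap. HOXA9 was at 0 to 0.0707 CPM in the 6, from 3 counts in all, and at 4.40 to 12.8 CPM in the 30.

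HOXC and HOXB transcripts lay mostly in the 30 libraries. HOXC10, a gene of the hindlimb and lumbar level, was at 0 to 0.0346 CPM in the 6, against 2.88, 7.35 and 13.1 CPM (lowest, median and highest) in the 30. HOXC11, its posterior neighbour, had 1 count over all 6 and was at 1.46, 4.08 and 5.69 CPM in the 30. HOXC6, a thoracic-level gene, was at 0 in all 6 and at 1.61, 2.51 and 4.04 CPM in the 30, at least 186-fold lower in the 6, taking 3 counts over the 6 together as the limit of a count of 0. HOXC8 was at 0 in 4 of the 6, with a highest value of 0.212 CPM, and at 0.920, 2.59 and 3.81 CPM in the 30. HOXB2, an anterior gene of the hindbrain, was the 1 HOXB member with a mean of at least 1 CPM in the 30. It was at 0 in all 6 and at 0.772, 1.62 and 2.61 CPM in the 30, at least 114-fold lower in the 6. Thus an anterior member also stood with the 30, and paralog number alone did not separate the sets. The HOXC share of the HOX level per kb was 1.99% to 2.63% in the 6, against 12.8% to 22.6% in the 30, and the HOXB share 0% to 0.474% against 1.08% to 3.25%.

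The HOXD cluster split between its ends. HOXD10 was at 0 to 0.0707 CPM in the 6, against 0.921, 2.38 and 5.61 CPM in the 30, and HOXD11 at 0 to 0.0653 CPM against 1.05, 2.44 and 3.90 CPM. HOXD9 and HOXD8 were at 0 in all 6, at least 87.5-fold and at least 77.1-fold lower there, and HOXD9 was at 0.408, 1.17 and 2.25 CPM in the 30. HOXD1, at the anterior end, was present in both sets and their ranges overlapped, with 2.15, 7.39 and 13.6 CPM in the 6, against 0.440, 3.05 and 11.0 CPM in the 30. The anterior and central HOXA genes that follow were also above 0.5 CPM, in all of the 6. HOXA3, a gene of the pharyngeal arches, was at 6.25, 12.97 and 18.2 CPM in the 6, against 3.12, 7.06 and 18.3 CPM in the 30. HOXA4 was at 3.61, 4.02 and 4.17 CPM against 1.63, 2.51 and 4.59 CPM, and HOXA5, a gene of lung and cervical-level patterning, at 1.55, 2.33 and 3.19 CPM against 0.641, 1.499 and 2.72 CPM. For each of these genes the sets overlapped when groups were pooled. Within each group that held both kinds, HOXA3, HOXA4 and HOXA5 were higher with COL1A1 below 10 CPM, without overlap. In stimulated cells in normal medium HOXA3 was at 6.25 to 9.21 against 3.12 to 5.70 CPM. In untreated cells in insulin-resistant medium it was at 16.7 to 18.2 against 6.06 to 13.1 CPM. HOXD1 overlapped in the latter group (10.6 to 13.6 against 4.22 to 11.0 CPM). The share of all genes higher in this way within groups was not counted.

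The drop was smaller for a few members that were above 0 in every one of the 6. HOXC13, a gene of hair and nail, was at 0.131, 0.237 and 0.329 CPM in the 6, against 0.625, 1.57 and 4.52 CPM in the 30, 9.06-fold lower. HOXC9, of the lower trunk, was 8.62-fold lower and the central HOXA7 12.7-fold lower in the 6. The remaining members lower in all 6 were HOXB13, HOXC4 and HOXD13, each under 1 CPM on average in the 30. Over all 39 members, 16 had no count in any of the 6. Several neighbours share exon bases on 1 strand, among them HOXC4, HOXC6 and HOXC9, and HOXD10 and HOXD11, so how the authors' estimate divided reads among them is uncertain.

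**Figure D2:**
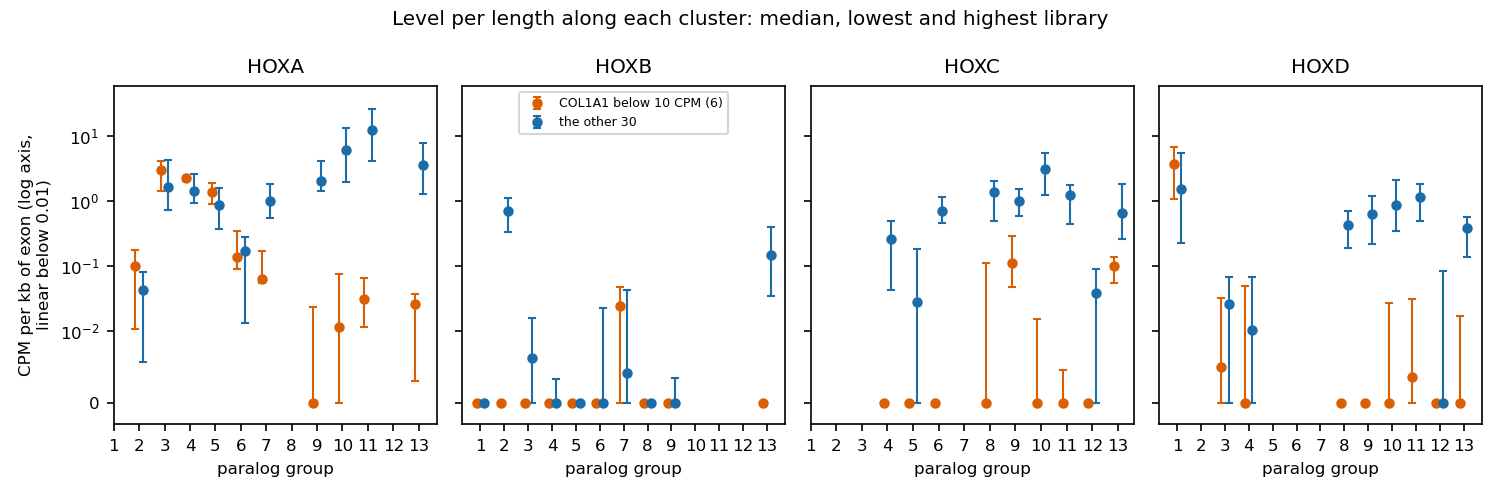
Points give the median CPM per kb of exon for the HOX genes reported here, by paralog group of the 4 clusters (log axis, linear below 0.01), and bars run from the lowest to the highest library, in the 6 libraries with COL1A1 below 10 CPM (orange) and the other 30 (blue). The highest orange points are HOXD1 (3.74), HOXA3 (3.01), HOXA4 (2.30) and HOXA5 (1.36), and the highest blue point is HOXA11 (12.5).

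Per kb of exon, the median order in the 6 was HOXD1 (3.74 CPM per kb), HOXA3 (3.01), HOXA4 (2.30) and HOXA5 (1.36). The ranges of HOXD1 (1.09 to 6.87), HOXA3 (1.45 to 4.22) and HOXA4 (2.06 to 2.39) overlapped. These medians pool triplets of different treatment, and the order was not the same in both. Of the 6, each library of stimulated cells in normal medium had HOXA4 as its highest member per kb. Each library of untreated cells in insulin-resistant medium had HOXD1. In the 30 the order was HOXA11 (12.5), HOXA10 (6.10), HOXA13 (3.64), HOXC10 (3.15), HOXA9 (2.03) and HOXA3 (1.64). Summed over all members, the HOX level was 28.8 ± 11.6 CPM in the 6 (SD, n = 6) and 140.0 ± 38.1 CPM in the 30 (SD, n = 30). Of the 6, the stimulated libraries in normal medium had 15.3 to 20.7 CPM. The untreated ones in insulin-resistant medium had 37.0 to 40.7 CPM.

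Other genes of position and the partners of HOX proteins were read from lists. TBX5, the forelimb T-box factor, was at 0 in all 6 and at 8.34, 14.8 and 28.95 CPM in the 30. SHOX, a factor of limb length, was at 0 in the 6, against 9.45, 16.5 and 25.1 CPM in the 30. PITX1, which directs hindlimb identity, was present in both, at 39.9, 45.7 and 66.2 CPM in the 6, against 20.2, 30.2 and 53.2 CPM in the 30. FOXF1, a factor of visceral mesenchyme, was at 0 in the 6, against 4.92, 8.24 and 17.6 CPM in the 30. HOTAIR, a non-coding RNA of the HOXC cluster, was likewise at 0 in the 6, against 2.10, 6.24 and 15.7 CPM in the 30. Of the TALE homeodomain cofactors that bind DNA with HOX proteins, MEIS1 was at 2.20 to 4.43 CPM in the 6, against 12.6 to 54.3 CPM in the 30. PBX2 ran the other way, at 103 to 116 CPM in the 6, against 63.1 to 99.5 CPM in the 30. Transcripts of forelimb, hindlimb and visceral factors were thus measured in the same libraries, but not all of them set the 30 apart. Like PITX1, the T-box gene TBX4 was present in every library (0.604 to 6.20 CPM among the 6, elsewhere 1.11 to 4.12). Unlike FOXF1, the listed visceral and head factors together had the higher median sum among the 6 (101 CPM, otherwise 73.1), with overlapping ranges. The limb and trunk list had the lower one there (230 CPM, otherwise 407). No single body site was read from these genes here.

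Among the 30, libraries also fell into triplets with high and low FN1, the gene of fibronectin. FN1 was at 30773 to 37332 CPM in 12 libraries and at 11437 to 16634 CPM in 18. Since 3 of the 4 groups held both kinds, the sets were compared within groups. In untreated cells of insulin-resistant medium the low-FN1 libraries all had the batch date 24 May, and the high-FN1 ones had April dates. FN1 and batch cannot be told apart there. In normal medium, the low-FN1 untreated replicates 4 to 6 were also of 24 May. Each side of a comparison was made of few triplets, and libraries of a triplet are not independent cultures for certain. HOXC13, HOXD10, HOXD9, HOXD8, HOXD11 and HOXC8 were higher with high FN1 in all 3 groups without overlap, which is 6 of 39 members, against 2.41% of genes. No member was lower in all 3 groups, against 8.04% of genes. Taken singly, 6 members were higher and 10 lower without overlap in stimulated cells in insulin-resistant medium (4.91% and 23% of genes). In untreated cells of that medium 10 were higher and 7 lower (8.03% and 27.4% of genes), and in untreated cells in normal medium 7 were higher and 1 was lower (4.62% and 15.3% of genes).

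HOXC13 was at 3.88 ± 0.378 CPM with high FN1 and 1.85 ± 0.249 CPM with low FN1 in insulin-stimulated cells in insulin-resistant medium (SD, n = 6 and 3). In untreated cells of that medium it was at 4.27 ± 0.361 against 1.05 ± 0.130 CPM (n = 3 each), and in untreated cells in normal medium at 3.85 ± 0.245 against 1.18 ± 0.228 CPM (n = 3 and 6). Its geometric mean ratio over the groups was 3.04. The other ratios of high to low FN1 were 2.36 for HOXD10, 2.09 for HOXD9, 1.82 for HOXD8, 1.78 for HOXD11 and 1.64 for HOXC8. At the other end stood HOXA2 (0.465, at most 0.199 CPM in any of these libraries), HOXA7 (0.666), HOXA13 (0.672) and HOXA9 (0.694). HOXB7 and HOXD12, at 0 in a set of a group, were left out of this order. For HOXA7, HOXA13 and HOXA9 the sets overlapped in at least 1 group. HOXA13 was at 17.5 ± 1.73 against 39.004 ± 0.680 CPM in stimulated cells in insulin-resistant medium, but at 17.7 ± 0.349 against 17.8 ± 7.44 CPM in untreated cells in normal medium. HOXA9 was at 5.82 ± 1.10 CPM with high FN1, above 5.13 ± 0.674 CPM with low FN1, in untreated cells of insulin-resistant medium. Stromal markers and the sum of muscle markers moved with FN1 as well. The 20 stromal markers summed to 61618 to 80795 CPM with high FN1 and 25367 to 56269 CPM with low FN1, and COL1A1 was at 22321 to 31870 CPM against 8071 to 20495 CPM, both without overlap. Muscle markers summed to 690.0 to 890.3 CPM with high FN1 and 88.1 to 271 CPM with low FN1. Most of this sum was ACTA2, at 555 to 722 CPM with high FN1. The median muscle marker was at 0.893 to 1.42 CPM there, and 2 of the 6 markers were below 0.1 CPM throughout, so the sum does not show muscle cells. Set against COL1A1, the summed level of the members below 0.5 CPM in all of the 6 libraries was 3.86 to 4.83 CPM per 1000 CPM of COL1A1 with high FN1. With low FN1 it was 4.48 to 5.29 in replicates 1 to 3 of both groups in normal medium and 7.37 to 17.6 in the other 12 libraries, so this sum per COL1A1 was lower, not higher, with high FN1 than in those 12. The part of stromal content and of these muscle markers in the HOX differences was not tested.

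Ratios of counts within a library take out its depth. The count ratio of HOXC13 to HOXA13 was 0.159 to 0.268 in the 12 libraries with high FN1. With low FN1 it was 0.0742 to 0.103 in replicates 1 to 3 of both groups in normal medium, and 0.0369 to 0.0578 in the other 12 libraries. The ratio of HOXD10 to HOXA10 was 0.163 to 0.238, 0.124 to 0.166 and 0.0345 to 0.0574 in the same sets, and that of HOXD11 to HOXA11 0.0911 to 0.128, 0.0896 to 0.114 and 0.0339 to 0.0515. For HOXC13 to HOXA13 the sets did not overlap, and for the ratios of HOXD10 and HOXD11 the first 2 sets did. These 2 sets also overlapped for HOXC10 to HOXA10 (0.294 to 0.371 and 0.289 to 0.388). The same held for HOXC11 to HOXA11 (0.136 to 0.213 and 0.142 to 0.192) and HOXD13 to HOXA13 (0.0365 to 0.0741 and 0.0490 to 0.114). HOXC13 and HOXA13 stood near opposite ends of the FN1 ratios given above, so the gap in their ratio is no separate support. The division of the low-FN1 libraries was not planned and no limit of FN1 or COL1A1 defines it. The gaps between its sets are therefore a description of these values only. Each set is made of whole triplets and holds libraries of more than 1 group, but the middle set holds normal medium only. The part of treatment in these sets was not tested. Replicate 2 of stimulated cells in normal medium had the lowest posterior sum of the 30 (37.5 CPM). Pearson correlations between triplet means, over the 39 log2(CPM + 0.1) values, were 0.979 to 0.998 among high-FN1 triplets (6 pairs) and 0.950 to 0.988 among low-FN1 triplets (15 pairs). They were 0.945 to 0.980 between high and low FN1 (24 pairs), and 0.227 to 0.447 between the triplets with COL1A1 below 10 CPM and the others. Genes with no count in either triplet add to such values.

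**Figure D3:**
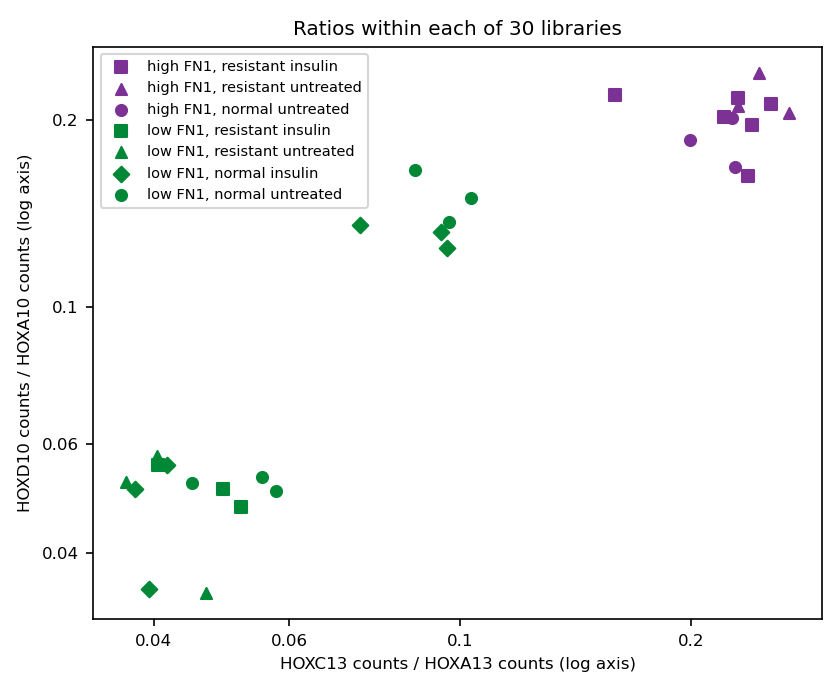
Each point is 1 of 30 libraries, with the count ratio of HOXC13 to HOXA13 on the x axis and of HOXD10 to HOXA10 on the y axis (both log), coloured by FN1 and shaped by group. Points lie in 3 clouds, with high FN1 (purple) at 0.159 to 0.268 on the x axis.

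The groups compare insulin-stimulated with untreated cells in each medium, and the media with each other. The insulin-resistant medium itself held 1 nM insulin, and the labels do not state whether it was withdrawn before untreated cells were harvested. The contrast within that medium, and the interaction, may therefore set 3 nM against 1 nM insulin. For these contrasts 27 of the 39 members had counts enough to be tested (edgeR's quasi-likelihood test, Benjamini-Hochberg over 17983 genes). HOXD1 was the member with the largest response to medium. It was at 4.22, 9.82 and 13.6 CPM (lowest, median and highest) in untreated cells in insulin-resistant medium, against 0.440, 0.734 and 1.27 CPM in untreated cells in normal medium. The groups did not overlap. The log2 fold change was 3.43 ± 0.21 (SE, adjusted p = 2.83e-14). It was the 1 member called in this contrast, where 21.9% of all genes were called. Without the 6 libraries it was 3.06 ± 0.13 (edgeR adjusted p = 1.78e-16), with HOXA3 (-0.46, adjusted p = 0.000257) and HOXA4 (-0.41, adjusted p = 0.00113) called as lower, 3 of 29 members tested against 26.7% of genes. Within the batches, which the labels give as dates, HOXD1's log2 fold change was 3.55 ± 0.33 (22 April), 3.52 ± 0.47 (11 April) and 3.17 ± 0.30 (24 May), with edgeR adjusted p of 4.77e-05, 0.00565 and 0.00128. Both groups held replicates 1, 3, 7 and 8 on 22 April, 2 and 9 on 11 April, and 4 to 6, a single triplet, on 24 May. Replicates 1 to 3 in insulin-resistant medium are among the 6 libraries.

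HAGLR, a non-coding RNA antisense to HOXD1 that shares 158 exon bases with it, moved with it in this contrast. It was at 27.8, 46.0 and 83.8 CPM against 6.66, 8.09 and 10.4 CPM, a log2 fold change of 2.57 ± 0.18 (edgeR adjusted p = 7.34e-13), and 2.13 without the 6 libraries (edgeR adjusted p = 2.98e-18). The kit keeps strand, but the strand setting of the counting is not given, so the reads of the shared bases cannot be assigned with certainty.

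In normal medium, HOXD1 was higher and 3 HOXA genes were lower with insulin. HOXD1 was at 0.889, 1.66 and 4.14 CPM in stimulated cells, against 0.440, 0.734 and 1.27 CPM in untreated cells, a log2 fold change of 1.42 ± 0.20 (edgeR adjusted p = 6.12e-07). The groups overlapped at their edges, and the 3 highest stimulated values were in libraries with COL1A1 below 10 CPM. HOXA3 was at 3.12, 5.54 and 9.21 CPM in stimulated cells and 8.24, 10.3 and 18.3 CPM in untreated cells, and fell by 0.98 ± 0.17 on the log2 scale (edgeR adjusted p = 1.54e-05). HOXA6, a central gene of low level, was at 0.0171, 0.112 and 0.210 CPM against 0.0947, 0.233 and 0.359 CPM, and fell by 1.05 ± 0.28 (edgeR adjusted p = 0.00366). HOXA5 was at 0.641, 1.22 and 1.79 CPM against 1.26, 1.64 and 2.72 CPM, and fell by 0.42 ± 0.14 (edgeR adjusted p = 0.0205). HOXA3 shares 374 exon bases with the antisense RNA HOXA-AS2, and HOXA6 505 with the antisense RNA HOXA-AS3. HOXA4 shares 541 with a transcript on its own strand. HOXA-AS3 was called lower too (-1.02, edgeR adjusted p = 0.0125), and HOXA-AS2 without the 6 libraries (-0.89, edgeR adjusted p = 4.54e-07). Reads of these shared bases cannot be assigned with certainty either. Within the batches of 22 April, 11 April and 24 May, HOXD1's log2 fold change was 1.18, 1.49 and 1.54 (edgeR adjusted p of 0.0367, 0.0829 and 0.00853), and that of HOXA3 was -1.20, -0.71 and -1.02 (edgeR adjusted p of 0.0154, 0.319 and 0.00868). Stimulated replicates were 1, 3, 5, 7 and 8 on 22 April, 6 and 9 on 11 April, and 2 and 4 on 24 May. Of these, 4 to 6 are among the libraries with COL1A1 below 10 CPM. The untreated replicates were those of the medium contrast. These 4 calls of 27 stand beside 35.2% of all genes called (24.9% higher, 10.2% lower). The median log2 fold change of the members was -0.42, against 0.03 over all genes.

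HOXA4 was at 1.63, 2.16 and 4.17 CPM in stimulated and 2.65, 3.14 and 4.59 CPM in untreated cells (log2 fold change -0.33 ± 0.14, edgeR adjusted p = 0.0596). It was called in 30 of 36 fits that differed in the library to which TMM scaled, and the 4 named calls in all 36. The split of all genes moved with that choice: 4484 were higher and 1843 lower as reported, and 2850 to 4484 higher and 1843 to 2970 lower over the 36 fits, with a median log2 fold change of -0.09 to 0.03. With DESeq2's size factors it was 3452 higher and 2434 lower.

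Without the 6 libraries, 7 of 29 members were called, 1 higher and 6 lower, beside 33.4% of genes (15.4% higher, 18.1% lower). HOXA3 fell by 1.35 ± 0.09 (edgeR adjusted p = 8.09e-12), HOXA4 by 0.75 (adjusted p = 3.27e-07), HOXA5 by 0.67 (adjusted p = 4.86e-05) and HOXA6 by 1.36 (adjusted p = 0.00104), while HOXD1's log2 fold change was 0.91 (adjusted p = 3.90e-06). HOXC13 (-0.97, adjusted p = 0.0286) and HOXD10 (-0.63, adjusted p = 0.0370) were called as well in this edgeR fit. No stimulated library in normal medium had high FN1, while 3 untreated ones did, and among low-FN1 libraries HOXC13's log2 fold change was 0.13. With the triplets summed, which leaves 3 units a group, HOXD1 (adjusted p = 0.0919) and HOXA3 (adjusted p = 0.0750) were not called and HOXA6 was (adjusted p = 0.0438), by edgeR. Hepatocyte markers moved too: without the 6, 14 of 22 were called lower and 0 higher, and their part in the HOXA differences was not tested.

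In insulin-resistant medium no member was called for insulin, nor was any of the 17983 genes by edgeR, although 4490 passed an unadjusted p of 0.05, and DESeq2 called 89. HOXA3 was at 5.94, 6.74 and 7.80 CPM in stimulated cells and 6.06, 11.5 and 18.2 CPM in untreated cells (log2 fold change -0.55, edgeR adjusted p = 0.0995). HOXD1 was at 4.73, 5.05 and 6.10 CPM against 4.22, 9.82 and 13.6 CPM (-0.52, edgeR adjusted p = 0.119). The higher untreated values lay in libraries with COL1A1 below 10 CPM or low FN1. Without the 6 libraries both differences were near 0 (-0.05 and -0.08) in the fit, which holds a batch term. Untreated replicates 4 to 6 were all of 24 May, and no stimulated library in this medium was, so that term can absorb their level. Their means were 11.9 CPM for HOXA3 and 9.64 CPM for HOXD1. Untreated replicates 7 to 9 were at 6.72 and 5.02 CPM, and the stimulated triplets at 6.13 to 7.28 and 4.94 to 5.44 CPM.

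The insulin effect differed between media for 2 members, 1 with a higher and 1 with a lower value in insulin-resistant medium, where 29.8% of all genes differed (6.22% higher, 23.5% lower). The insulin effect in insulin-resistant minus that in normal medium was -1.93 ± 0.28 for HOXD1 on the log2 scale (edgeR adjusted p = 3.14e-06) and 1.13 ± 0.40 for HOXA6 (edgeR adjusted p = 0.0337). Over all genes 1119 were higher and 4233 lower, against 1840 and 3252 with DESeq2's size factors. Without the 6 libraries 5 of 29 members were called, 4 higher and 1 lower, beside 21.8% of genes (12.4% higher, 9.37% lower). They were HOXA3 (1.31), HOXA4 (0.74), HOXA5 (0.68), HOXA6 (1.53) and HOXD1 (-0.99). The batch limit given for insulin in insulin-resistant medium holds for this fit as well.

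**Figure D4:**
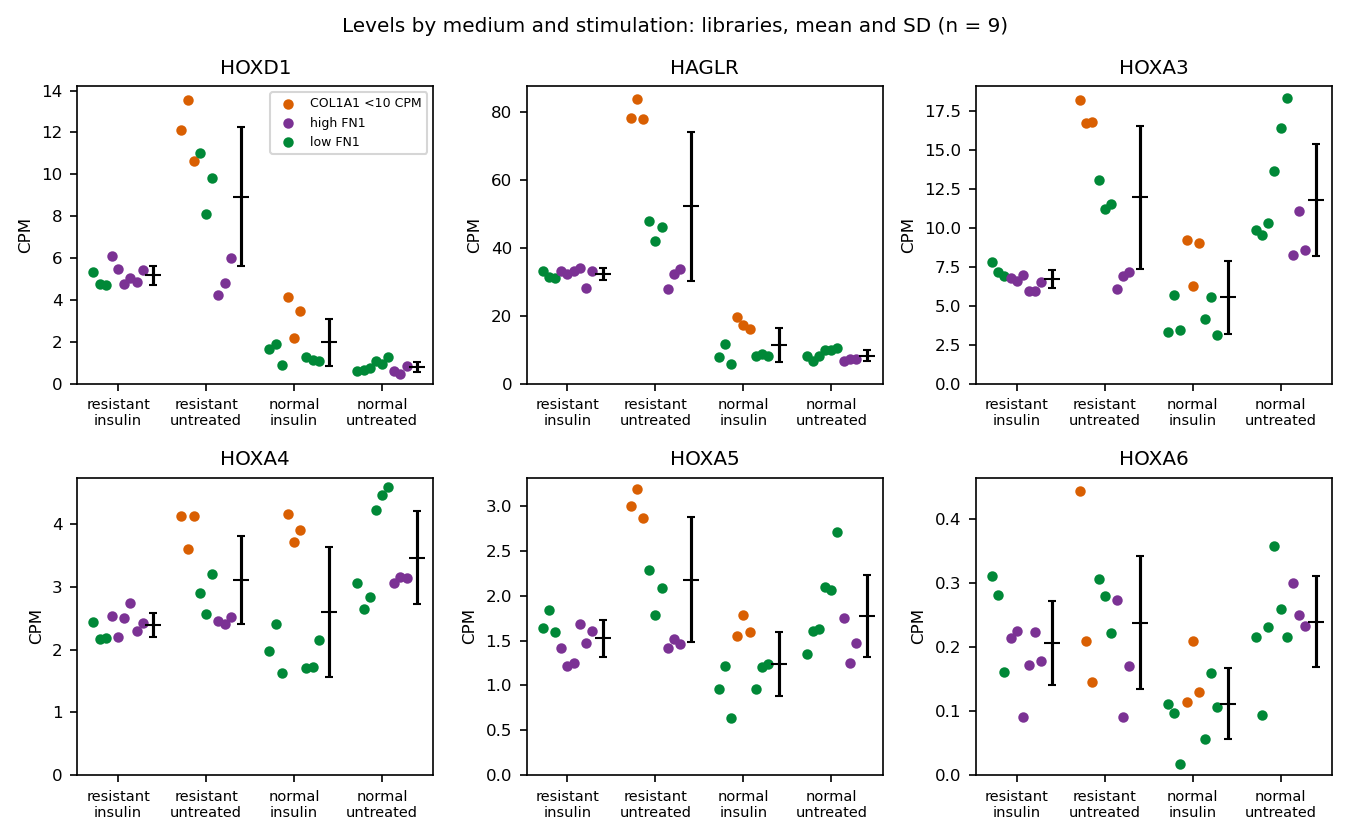
Points give CPM of HOXD1, HAGLR, HOXA3, HOXA4, HOXA5 and HOXA6 in each library of the 4 groups, coloured by COL1A1 and FN1, with mean and SD (n = 9). HOXD1 and HAGLR are high in both groups in insulin-resistant medium, and the orange points of untreated cells there are the highest HAGLR values.

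Of the genes known to act on HOX clusters, 12 of 21 tested members of a list of CDX factors, Polycomb and Trithorax subunits, demethylases and CTCF were called higher with insulin in normal medium and 0 lower. Without the 6 libraries these counts were 7 and 2. Beside these and the list counts that follow, 24.9% of all genes were called higher and 10.2% lower with all libraries, and 15.4% and 18.1% without the 6. The split of all genes moved with the TMM library as given above, and the lists were not counted over those fits. Of 12 tested genes of retinoic acid handling, the signal that opens HOX clusters in the embryo, 1 was higher and 2 were lower (1 and 3 without the 6). Of the 9 TALE cofactors, which had a median log2 fold change of -0.22 (0.02 without the 6), 1 was called, as lower, in the fit without the 6. Of 22 limb and trunk factors tested, 1 was higher and 2 were lower (5 and 4 without the 6), and of 12 visceral and head factors 2 were higher and 1 was lower (0 and 3 without the 6). Of 12 tested transcripts of the clusters that do not code for HOX proteins, 1 was higher and 1 lower (0 and 2 without the 6).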

How the data were processed

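RNA-seq libraries of HepG2-IGF1R-KO cells were analysed from the deposited table of expected counts, that is, the authors' estimated read counts per Ensembl gene, without library scaling. The submitters' processing notes name the tools STAR and Salmon and the build GRCh37; their versions and the strand setting of the counting were not given in the sources used here. Per the labels' protocols, poly-A RNA was selected and the library kit keeps strand.

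Libraries were grouped by title into 4 groups of 9. CPM scales counts to the library total (26.6M to 116.8M, median 64.65M), without TMM factors. For a count of 0 the limit is 3 counts, which covers counting error only. Levels per length divide CPM by the merged exon length of GENCODE v29, whose build differs from the files' build. The sets of libraries with COL1A1 below 10 CPM, and with FN1 of at least 25000 CPM as a triplet mean, were defined from measured values, so they are described and not tested.

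Contrasts were tested on rounded counts with edgeR 4.0.16 in R 4.3.3 (TMM, filterByExpr, robust quasi-likelihood F-test, a term per group and batch), with Benjamini-Hochberg adjustment over 17983 genes and a threshold of 0.05; DESeq2 1.42.0 was an alternative. TMM scales to a reference library that edgeR picks. It picked the fifth insulin-stimulated replicate in normal medium, which is among the libraries with COL1A1 below 10 CPM, so all fits were repeated against each of the 36 libraries, a step added after the counts of calls with 1 library left out were seen. The test was checked on simulated counts. The replicates are called biological in the labels, but triplets of consecutive numbers resemble one another, and p-values treat the 9 libraries as independent.

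All members were counted, and some results that meet the rule are not reported here. Values are given for members of at least 1 CPM on average in the other 30 libraries (in full for the 4 highest per cluster), members reaching 0.5 CPM in any of the 6, the up to 4 most and least FN1-associated, and up to 6 called members per contrast. The members and lists were chosen with earlier results of these data known. The replicate numbers were checked for pairing and do not pair the samples.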

Additional observations from a re-analysis of the deposited data

Results flagged for a closer look

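Among the 6 libraries with COL1A1 below 10 CPM, 5 HOX values stood far from the rest of their set. Replicate 1 of untreated cells in insulin-resistant medium had HOXA6 at 0.444 CPM (median of the 6, 0.177), HOXC8 at 0.212 CPM (median 0) and HOXD10 at 0.0707 CPM (median 0). Replicate 3 of that group had HOXA10 at 0.277 CPM (median 0.0414), and replicate 4 of insulin-stimulated cells in normal medium had HOXC11 at 0.0150 CPM (median 0). These were 5 of 92 groups of values checked. The limit used marks about 1 in 20 groups of normally distributed values, a rate that does not hold for values near 0 with ties. All 5 rest on few counts.

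The insulin effect differed between media for HOXD1 (-1.93 on the log2 scale, insulin-resistant minus normal medium) and HOXA6 (1.13), by the interaction term of the edgeR model.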

How the results depend on the processing

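Over 15 gene and contrast pairs and 218 alternative values, 163 kept direction and call, 19 lost the call, 28 gained it and 8 changed sign. Counts of members called that moved by more than 1.5 times were as follows. For insulin in normal medium (4 called) they were 7 without the 6 libraries with COL1A1 below 10 CPM, 1 with triplets summed, 2 within the 22 April and 0 within the 11 April batch, and 8 (4 higher, 4 lower) without the 6 and scaled to hepatocyte genes. For insulin in insulin-resistant medium (0) they were 1 with no batch term and 3 with a replicate block. For medium in untreated cells (1) they were 3 without the 6, 2 scaled to hepatocyte genes, 18 with both and 2 with low FN1 only. For the interaction (2) they were 5 by DESeq2, with the replicate block, without the 6 or scaled to hepatocyte genes, 4 with both or with low FN1 only, 1 with a filter of 1 CPM or no batch term, and 0 with triplets summed or within the 22 April or 11 April batch. The cause was not tested. The summed HOX level with high FN1 was 142 CPM scaled by TMM and 131 otherwise. With a pseudocount of 1, median correlations of triplet means were 0.246 between high FN1 and low COL1A1 (0.323 with 0.1), 0.217 between low COL1A1 and low FN1 (0.304), 0.953 between high and low FN1 (0.969) and 0.960 within low FN1 (0.973).

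Leaving out 1 library at a time gave 5 to 7 calls for insulin in normal medium, 0 to 1 in insulin-resistant medium, 1 for medium and 2 to 5 for the interaction. The first range lies above the 4 reported. HOXD3, not tested with all libraries, passed the filter in 28 of 36 such fits and was called in all 28, at no more than 19.4 counts in a library. HOXA4 was called in 28 of the 28 fits in which edgeR scaled to another library and in 1 of the 8 in which it did not. Signs changed for HOXC13 with insulin in normal medium (0.13, low FN1 only), for HOXA3 with medium (0.069 scaled to hepatocyte genes, 0.053 also without the 6, 0.081 on 22 April, 0.18 on 11 April, 0.0080 without replicate 7 of untreated cells in insulin-resistant medium, within a range of -0.16 to 0.0080), for HOXA4 with medium (0.11 without the 6 and scaled to hepatocyte genes) and, on 11 April, for the interaction of HOXA4 (-0.10) and HOXA5 (-0.21).

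Replicate numbers did not pair the samples: over 54 pairs the correlation of deviations was -0.827 to 0.749 (median 0.119), and a library correlated best with its own number in 16 of 108 cases. Members at a few counts in the 6 libraries are limited by depth, and the alternatives on batches of 11 April and 24 May, low FN1 and the TMM library were chosen after seeing the data. The division of the low-FN1 libraries by replicate and medium was not planned either.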
